A study of Mus musculus with 74 samples.

Results

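Kat7 and Meaf6 were 2 of the 17 genes targeted in mouse lung tumours, and their tumours were found by the gene name of either guide of a construct. They were present in 9976 of the 378754 tumours listed for 74 mice, after leaving out constructs that carried 1 guide in duplicate and those with a guide named NE. Kat7 had 1 guide, which was read in both places of the construct, and Meaf6 had 1 guide, which was read in the first place only. Results on either gene therefore rest on a single guide, and cutting of the genes and loss of their proteins were not measured in the files used here.

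Kat7, also called HBO1, is a histone acetyltransferase of the MYST family that works in complexes with scaffold proteins of the BRPF and JADE families and a reader protein of the ING family. It adds acetyl groups to histones H3 and H4 and has been linked to the start of DNA replication and to gene activation. Meaf6 is a small subunit without enzyme activity of its own that is found in the Kat7 complexes and also in those of the related acetyltransferases MOZ, MORF and TIP60.

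The lungs had been harvested about 3 months after tumours were started with a pool of lentiviruses, each carrying Cre, a tumour barcode and 2 guide RNAs. All mice carried the KT alleles, which include R26LSL-Tomato, a fluorescent reporter that Cre switches on. In 45 mice an H11-Cas9 allele was added, in 20 mice an H11-LSL-Cas9 allele, in which Cas9 also waits for Cre, and 9 KT mice lacked Cas9, without which a guide cannot cut. Each mouse was 1 library and 1 replicate, and neither the viral dose nor the age of the mice is given in the sources used here.

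A mouse held from 1013 to 5364 tumours in H11-Cas9, from 4 to 4941 in H11-LSL-Cas9 and from 13191 to 41166 in KT, and 2 H11-LSL-Cas9 mice had fewer than 20. Mice with at least 5 inert/inert tumours, those with 2 inert guides (safe, NT or EGFP), entered the comparisons of number, which were 45, 17 and 9 mice. The spike-in cells used to scale a mouse summed to about 100000 in 25 H11-Cas9 and 5 KT mice and to about 300000 in the others, and values within each total are given for the members' numbers beside other genes. Near 100000 cells all H11-Cas9 mice had the name letters LA and all KT mice SL, so whatever those letters mark cannot be told apart from genotype there. All H11-LSL-Cas9 mice had name letters, HC or MT, that no other mouse had, so whatever those letters mark cannot be told apart from that genotype. Pcna, the clamp of DNA replication that dividing cells need, beside other targeted genes was at 0.0557-fold of its KT number in H11-Cas9, with 0.304-fold for H11-LSL-Cas9 (labels of mice permuted, adjusted p = 1.7e-05 and 3.4e-05).

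Tumours with Kat7 beside an inert guide numbered 278 in H11-Cas9, 132 in H11-LSL-Cas9 and 538 in KT mice, and the corresponding Meaf6 tumours numbered 157, 85 and 307. Inert/inert tumours numbered 1107, 400 and 1466. Far more tumours had a member beside another targeted gene. There were 1654 for Kat7 in H11-Cas9, 784 in H11-LSL-Cas9 and 3454 in KT, and 730, 384 and 1576 for Meaf6. Tumour number is thus given first against inert/inert tumours and then, with more tumours, against constructs with an inert guide instead of the member beside the same partner genes. Both orders were joined in these constructs. Meaf6 was read in the first place only, so its partner was always in the second, while the comparison could hold the partner in either. Whether the place of the partner affected the Meaf6 results was not tested.

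Kat7 tumours beside an inert guide were fewer on average in H11-Cas9 than in KT mice, by a difference whose call depended on the form of the test. Per 100 inert/inert tumours of the same mouse, Kat7 beside an inert guide gave a lowest, median and highest value of 4.76, 25 and 120 in 45 H11-Cas9 mice, 10, 31.6 and 100 in 17 H11-LSL-Cas9 mice and 29.5, 35.3 and 47.6 in 9 KT mice. The groups overlapped, with 32 H11-Cas9 mice under the lowest KT mouse and 4 over the highest. The mean number was 0.684-fold of KT in H11-Cas9, a log2 difference of -0.55 ± 0.13 (SE), with 41.2% of the 17 genes called. Its adjusted p of 0.0612 missed the threshold of 0.05 when mouse labels were permuted (100000 permutations, 2-sided, Benjamini-Hochberg over 17 genes). When the permuted difference was divided by its SE, which allows for the unequal spread of the groups, the adjusted p was 0.00085, with 76.5% of the genes called. Relative to all tumours of the mouse in place of inert/inert tumours, the log2 difference was -0.13 (adjusted permutation p = 0.555).

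Beside other targeted genes the Kat7 difference passed the test. Per 1000 tumours with an inert guide beside the same partners, the lowest, median and highest mouse had 37.8, 66.3 and 86.6 Kat7 tumours in H11-Cas9, 38.3, 78.9 and 114 among H11-LSL-Cas9 mice, and 78.8, 86.8 and 90.8 in KT. All 45 H11-Cas9 mice were below the KT median, and 38 of them were below the lowest KT mouse. An H11-Cas9 mouse held only 15 to 79 such tumours and a KT mouse 197 to 720, so counting error is larger in H11-Cas9. Kat7 fell to 0.760-fold of KT in H11-Cas9 (log2 difference -0.40 ± 0.05 SE, 45 and 9 mice, labels permuted, adjusted p = 0.000247), where 70.6% of the 17 genes were called and 47.1% were called lower. Within mice of 1 spike-in total the log2 difference was -0.46 ± 0.07 near 100000 cells and -0.31 ± 0.06 near 300000 cells (adjusted permutation p = 0.00678 and 0.0121).

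Meaf6 showed a difference of much the same size. Per 100 inert/inert tumours, Meaf6 beside an inert guide had a lowest, median and highest value of 0, 13.7 and 40.9 in H11-Cas9, 3.70, 21.1 and 55.6 among H11-LSL-Cas9 mice and 13.5, 22.2 and 26.2 in KT mice. Of the 45 H11-Cas9 mice, 36 were below the KT median and 5 above the highest KT mouse, so the groups overlapped widely. The mean was 0.668-fold of KT in H11-Cas9 (log2 difference -0.58 ± 0.16 SE), with an adjusted permutation p of 0.0955, or 0.00719 when divided by the SE. Relative to all tumours the log2 difference was -0.16 (adjusted permutation p = 0.555).

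Beside other targeted genes Meaf6 passed as well. The lowest, median and highest mouse had 11.9, 26.6 and 49.2 Meaf6 tumours per 1000 in H11-Cas9, 26.3, 40.2 and 59.6 among H11-LSL-Cas9 mice and 34.1, 38.7 and 44.5 in KT. Below the KT median were 43 of the 45 H11-Cas9 mice, 33 were below the lowest KT mouse, and 1 was above the highest. Here too counts were smaller in H11-Cas9, with 5 to 42 such tumours in a mouse against 85 to 310 in KT. Meaf6 fell to 0.732-fold of KT in H11-Cas9 (log2 difference -0.45 ± 0.07 SE, labels permuted, adjusted p = 0.002). Near 100000 cells the difference was -0.54 ± 0.10 (adjusted permutation p = 0.0125). Near 300000 cells it was -0.34 ± 0.10 and missed the threshold (20 and 4 mice, adjusted permutation p = 0.104). Among LA mice near 300000 cells, the name letters that both groups share there, Kat7 was at -0.31 and Meaf6 at -0.38 (adjusted permutation p = 0.00158 and 0.106).

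**Figure D1:**
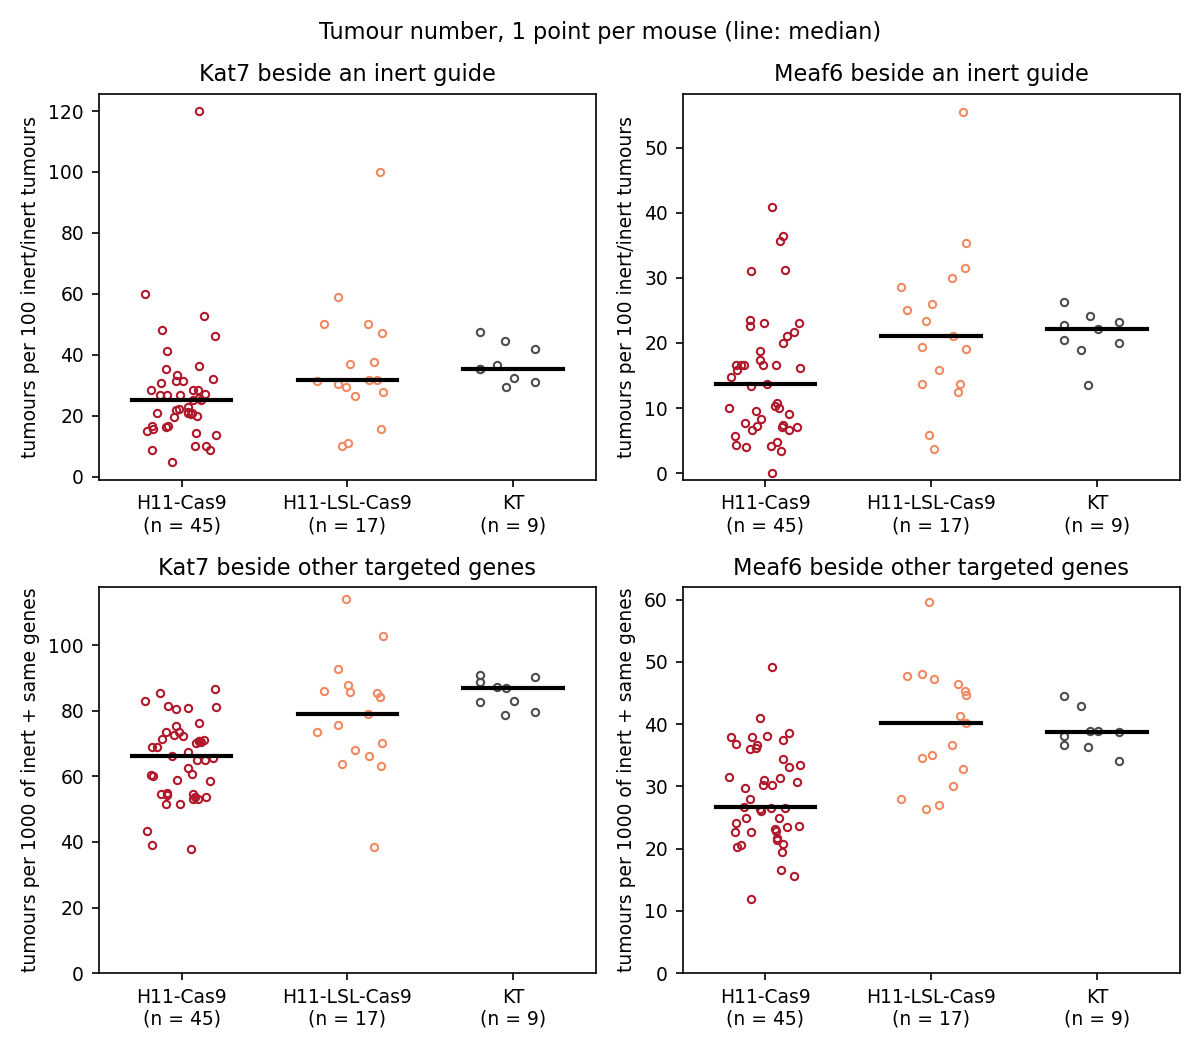
Number of Kat7 tumours (left) and Meaf6 tumours (right) in each mouse, beside an inert guide per 100 inert/inert tumours (top) and beside other targeted genes per 1000 tumours with an inert guide beside the same genes (bottom). Each point is 1 mouse and each line a median, and in the bottom row the H11-Cas9 medians of 66.3 and 26.6 lie under the KT medians of 86.8 and 38.7.

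In H11-LSL-Cas9 mice no difference in number from KT passed for either member. Kat7 was at 0.912-fold beside an inert guide and 0.910-fold beside other genes (log2 differences -0.13 ± 0.20 and -0.14 ± 0.09 SE, 17 and 9 mice, labels permuted, adjusted p = 0.715 and 0.344). Meaf6 was at 1.01-fold and 1.02-fold (0.01 ± 0.21 and 0.02 ± 0.09, adjusted permutation p = 0.966 and 0.854). In that group 23.5% of the 17 genes were called beside an inert guide and 58.8% beside other genes.

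The 2 Cas9 groups were also set against each other, since a difference called in one and not in the other is not itself a test. Beside other genes, number was lower in H11-Cas9 than in H11-LSL-Cas9 for Kat7 at 0.836-fold (log2 difference -0.26 ± 0.09 SE, 45 and 17 mice, labels permuted, adjusted p = 0.00591) and for Meaf6 at 0.721-fold (-0.47 ± 0.10, adjusted permutation p = 0.000127). In this comparison 64.7% of the 17 genes were called. With only the mice near 300000 cells, Meaf6 kept a called difference of -0.37 ± 0.11 (20 and 17 mice, adjusted permutation p = 0.00591), and Kat7 had -0.18 ± 0.09 (adjusted permutation p = 0.0756). Beside an inert guide the differences were -0.42 ± 0.22 for Kat7 and -0.59 ± 0.23 for Meaf6 (adjusted permutation p = 0.118 and 0.0537, with 29.4% of genes called).

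No difference between Kat7 and Meaf6 passed in how far their numbers lay from KT. The ratio of Kat7 to Meaf6 tumours beside the partners they share was 1.03-fold of its KT value in H11-Cas9 (log2 difference 0.04 ± 0.06 SE, labels permuted, adjusted p = 0.756 over all 136 gene pairs). In H11-LSL-Cas9 it was 0.900-fold (-0.15 ± 0.11, adjusted permutation p = 0.387). Of the 136 gene pairs, 86.0% were called in H11-Cas9, while 66.2% were called in H11-LSL-Cas9.

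The other chromatin genes of the pool were the histone H3 lysine methyltransferases Kmt2a, Kmt2b and Setd2, and they spanned a wider range than the members. Beside other genes in H11-Cas9, Kmt2b fell to 0.474-fold and Setd2 to 0.824-fold of KT (log2 differences -1.08 ± 0.07 and -0.28 ± 0.02 SE, labels permuted, adjusted p = 1.7e-05 for both), while Kmt2a was at 0.923-fold and did not pass (-0.12 ± 0.05, adjusted permutation p = 0.219). Called lower were thus 2 of these 3 genes, where 47.1% of all 17 genes were. The ratio of a member's tumours to those of such a gene in the same mouse was also set against that ratio in KT. The ratio to Kmt2a was 0.823-fold of its KT value for Kat7 and 0.795-fold for Meaf6 (adjusted permutation p = 0.0195 and 0.0445), and the ratio to Kmt2b was 1.60-fold and 1.54-fold of its KT value (adjusted permutation p = 1.66e-05 and 0.000862). The ratios to Setd2 did not pass, at 0.930-fold and 0.908-fold of KT (adjusted permutation p = 0.279 and 0.330).

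Among the other genes with 1 guide, Ccnl1 and Ccnl2, cyclins linked to RNA splicing, were at 0.984-fold and 1.03-fold of KT beside other genes in H11-Cas9 (adjusted permutation p = 0.827 and 0.624). The ratio of Kat7 tumours to those of Ccnl1 was 0.773-fold of its KT value, and to those of Ccnl2 0.733-fold (adjusted permutation p = 0.00334 and 0.000379), and for Meaf6 these were 0.745-fold and 0.709-fold (adjusted permutation p = 0.00432 and 0.00424). In H11-LSL-Cas9 only the ratio of Kat7 to Ccnl2 passed among these 4, at 0.812-fold of KT (adjusted permutation p = 0.00251). Relative to KT, the ratio to Pcna, the gene with the fall given above, was 13.3-fold for Kat7 and 12.7-fold for Meaf6 in H11-Cas9 (adjusted permutation p = 1.66e-05 for both).

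**Figure D2:**
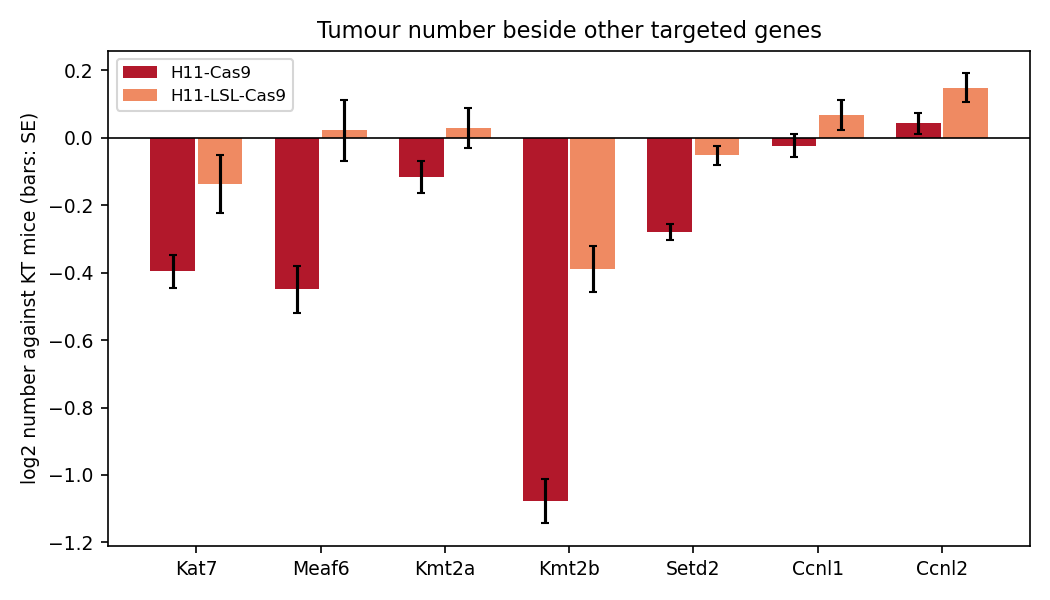
Log2 of tumour number beside other targeted genes against KT mice for Kat7, Meaf6, the 3 histone methyltransferase genes, Ccnl1 and Ccnl2, in H11-Cas9 (left bar of each pair) and H11-LSL-Cas9 (right bar). Bars start at 0 and lines are SE over mice. In H11-Cas9, Kat7 at -0.40 and Meaf6 at -0.45 lie between Kmt2b at -1.08 and Setd2 at -0.28. Pcna is not plotted because of its range.

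Adding Kat7 was also followed partner by partner in H11-Cas9. The tumours of a partner with Kat7 were summed over mice, divided by the tumours of that partner with an inert guide, and set against the same ratio in KT mice. The ratio was below KT for 16 of 16 partners, with a median of 0.776-fold, against a median of 0.915-fold over all 272 ordered steps, of which 165 were below. It stayed below whichever single mouse was left out for 13 partners. Within 1 spike-in total it was below for 13 partners near 100000 cells and 14 near 300000 cells.

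For Kat7, 5 of 16 steps passed as decreases in H11-Cas9 (SE over mice, labels permuted with the difference divided by its SE, adjusted over 272 steps). Of all steps 46.0% were called and 30.9% were called lower, so the count for Kat7 was near the share over all steps. Beside Rnf43, a ubiquitin ligase that limits Wnt receptors, there were 145 tumours with Kat7 for 2537 with an inert guide in H11-Cas9, against 324 for 3674 in KT, which is 0.648-fold (log2 -0.63 ± 0.15, adjusted permutation p = 0.00597). Beside Rasa1, a GTPase-activating protein, the counts were 158 for 2604 against 281 for 3024, or 0.653-fold (-0.61 ± 0.15, adjusted permutation p = 0.0023). Nf1, another GTPase-activating protein, gave 220 for 3234 against 313 for 3152, or 0.685-fold (-0.55 ± 0.12, adjusted permutation p = 0.00294). The tumour suppressors Rb1 and p53 gave 0.750-fold and 0.752-fold (-0.42 ± 0.14 and -0.41 ± 0.13, adjusted permutation p = 0.0191 and 0.0299). All 5 ratios were below 1 within each spike-in total, and the highest was 0.866 for p53 near 300000 cells. The highest ratios were those beside Ccnl2 at 0.972-fold, Kmt2a at 0.930-fold and Apc at 0.918-fold, none of which passed.

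Adding Meaf6 gave a ratio below KT for 13 of 16 partners in H11-Cas9, with a median of 0.738-fold. It stayed below whichever single mouse was left out for 12 partners. Within 1 spike-in total it was below for 14 partners near 100000 cells but only 10 near 300000 cells. As decreases 4 of the 16 steps passed, where 30.9% of all steps were called lower, so Meaf6 did not exceed the share over all steps. Beside Setd2 there were 50 tumours with Meaf6 for 2141 with an inert guide in H11-Cas9, against 145 for 3545 in KT, which is 0.571-fold (log2 -0.81 ± 0.24 SE, labels permuted, adjusted p = 0.0167). Rb1 gave 60 for 1875 against 133 for 2551, or 0.614-fold (-0.70 ± 0.19, adjusted permutation p = 0.0121). The steps beside p53 at 0.645-fold (81 for 3487 against 141 for 3918) and Nf1 at 0.652-fold (101 for 3234 against 151 for 3152) passed too (adjusted permutation p = 0.0185 and 0.0149). The step beside Keap1, the adaptor that marks NRF2 for breakdown, was as low at 0.645-fold and did not pass (37 for 1464 against 149 for 3800, adjusted permutation p = 0.141). The 4 called ratios were below 1 within each spike-in total. Over all mice, the 3 partners with a ratio above KT were Kmt2b at 1.54-fold, Pcna at 1.52-fold and Lkb1, a kinase of energy sensing, at 1.17-fold. None of them passed (adjusted permutation p = 0.326, 0.528 and 0.529).

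The steps beside Nf1, Rb1 and p53 passed for both members. Both members are set against the same tumours of a partner with an inert guide, so their steps beside it are not independent. Few tumours lay behind several of the other steps, such as 7 in H11-Cas9 and 14 in KT for Meaf6 beside Ccnl1. A step that did not pass beside such a partner is limited by these counts.

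**Figure D3:**
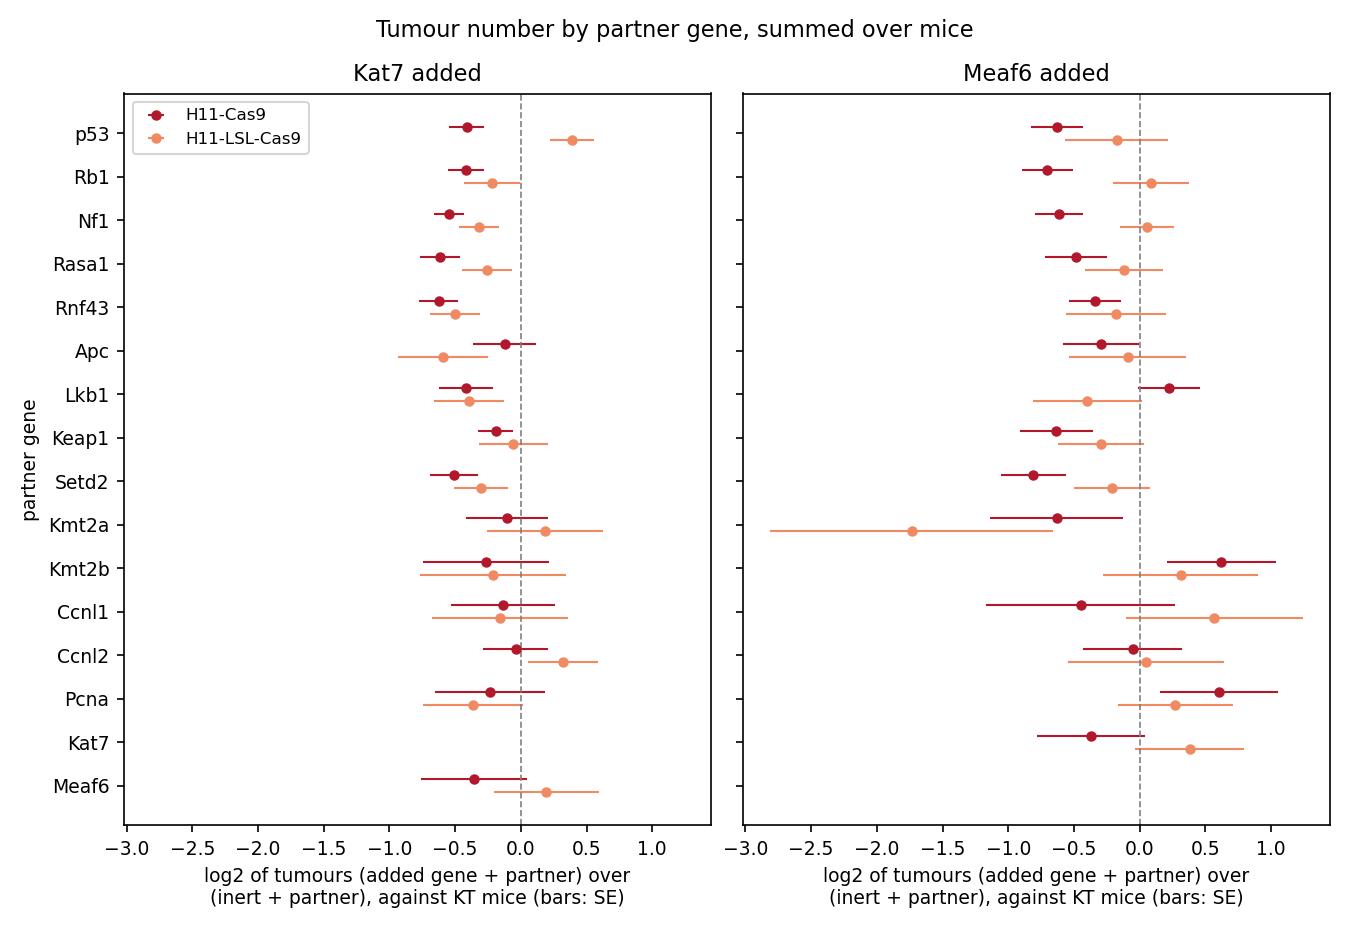
Log2 ratio of tumours with Kat7 (left) or Meaf6 (right) added beside a partner gene over tumours with an inert guide beside it, in H11-Cas9 (upper point of each pair) and H11-LSL-Cas9 (lower point) against KT mice, summed over mice with SE over mice. For Kat7 every H11-Cas9 point lies left of 0, from -0.63 beside Rnf43 to -0.04 beside Ccnl2, and for Meaf6 the points beside Kmt2b, Pcna and Lkb1 lie right of it.

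In H11-LSL-Cas9 no step of either member passed, where 21% of all steps were called. At an unadjusted p under 0.05 there were 2 for Kat7 and 0 for Meaf6. Kat7 was below KT for 11 of 16 partners (median 0.861-fold) and Meaf6 for 8 of 16 (median 0.984-fold), against a median of 0.971-fold over all steps. The highest Kat7 ratios were 1.31-fold beside p53 (113 tumours for 1192 against 284 for 3918, labels permuted, adjusted p = 0.0785), 1.25-fold beside Ccnl2 and 1.14-fold beside Meaf6, and its lowest were 0.664-fold beside Apc, 0.706-fold beside Rnf43 and 0.761-fold beside Lkb1. For Meaf6 the highest were 1.48-fold beside Ccnl1, 1.30-fold beside Kat7 and 1.24-fold beside Kmt2b. Its lowest were 0.759-fold beside Lkb1, 0.815-fold beside Keap1 and 0.300-fold beside Kmt2a, the last on 2 tumours.

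Compared partner by partner between the Cas9 groups, 2 steps of Kat7 and 2 of Meaf6 passed, all lower in H11-Cas9. For Kat7 beside p53 there were 190 tumours with Kat7 for 3487 with an inert guide in H11-Cas9, against 113 for 1192 in H11-LSL-Cas9, a ratio of 0.575-fold (log2 -0.80 ± 0.20 SE, 45 and 17 mice, labels permuted, adjusted p = 0.00258 over 272 steps, of which 23.9% were called). Leaving out any 1 mouse kept it between 0.546 and 0.599, and with H11-Cas9 mice near 300000 cells only it was 0.659. All 17 H11-LSL-Cas9 mice had such a tumour, and no mouse had more than 13. For Meaf6 the step beside Nf1 was 0.627-fold (101 for 3234 in H11-Cas9 against 50 for 1004 in H11-LSL-Cas9, -0.67 ± 0.23, adjusted permutation p = 0.0194), and 0.628 with mice near 300000 cells only.

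Tumours with both Kat7 and Meaf6 numbered 24 in H11-Cas9, 19 in H11-LSL-Cas9 and 60 in KT. They were found in 16 of 45, 12 of 20 and 9 of 9 mice. Summed over mice, this is 2.17 tumours per 100 inert/inert tumours in H11-Cas9 and 4.09 in KT, or 0.530-fold (log2 -0.92 ± 0.40 SE, labels permuted, adjusted p = 0.0482 over 136 pairs, of which 72.1% were called). With the ratio taken per mouse and a pseudocount of 0.5 tumours it was 0.778-fold and did not pass (log2 -0.36 ± 0.23, adjusted permutation p = 0.382). In H11-LSL-Cas9 the ratio per mouse was 1.35-fold (0.43 ± 0.29, adjusted permutation p = 0.385) and the summed ratio 1.17-fold (adjusted permutation p = 0.711). The step from 1 member to both was 0.782-fold for adding Kat7 beside Meaf6 and 0.774-fold for adding Meaf6 beside Kat7 in H11-Cas9, and neither passed (adjusted permutation p = 0.635 and 0.575).

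Pairs of a member with another gene against inert/inert tumours, taken per mouse, passed for 8 pairs in H11-Cas9, where 55.1% of the 136 pairs were called. Kat7 was lower with Pcna (0.134-fold, 11 tumours against 290 in KT), with Lkb1 (0.360-fold, 80 against 318), with Keap1 (0.484-fold, 113 against 335), and with Setd2 (0.545-fold, 129 against 304). The adjusted permutation p-values of these 4 pairs ran from 4.25e-05 to 0.0446. Meaf6 was lower with Pcna (0.331-fold, 8 against 118), with Keap1 (0.458-fold, 37 against 149) and with Setd2 (0.509-fold, 50 against 145), with adjusted permutation p-values up to 0.0488. Summed over mice, the pairs with Pcna were lower still, at 0.0502-fold for Kat7 and 0.0898-fold for Meaf6 (adjusted permutation p = 0.0351 for both), since a mouse without such a tumour is counted at 0.5 in the ratio per mouse. Without a member, beside an inert guide, all 4 of these partners also passed as decreases, Pcna at 0.0558-fold, Lkb1 at 0.440-fold, Keap1 at 0.509-fold and Setd2 at 0.803-fold (adjusted permutation p from 5.67e-05 to 0.0379). The highest pair ratios of Kat7 outside the called ones were 1.47-fold with Ccnl1 and 1.21-fold with Kmt2a, and those of Meaf6 were 1.51-fold with Ccnl2 and 1.47-fold with Kmt2b, and none of these passed in this form. Summed over mice, all 4 were below KT, at 0.823-fold, 0.848-fold, 0.917-fold and 0.745-fold in the same order, and none passed, so these pairs have no settled direction. With division by the SE the ratio per mouse of Ccnl2 with Meaf6 did pass (adjusted permutation p = 0.0332). With the permuted difference divided by its SE, 16 pairs of a member passed and 71.3% of all pairs were called.

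The eighth pair, Ccnl1 with Meaf6, was called higher at 2.3-fold per mouse (adjusted permutation p = 0.000453). The pair had 7 tumours in 45 H11-Cas9 mice and 14 in 9 KT mice, and its summed ratio was 0.662-fold (adjusted permutation p = 0.525). A mouse without such a tumour counts at 0.5, against a median of 24 inert/inert tumours in H11-Cas9, 19 in H11-LSL-Cas9 (all 20 mice) and 136 in KT. An empty mouse thus scores higher in the Cas9 groups, so this form cannot show a rise for so sparse a pair. In H11-LSL-Cas9, 24.3% of pairs were called, and among them were Kat7 with Pcna (0.285-fold, 19 against 290 tumours, adjusted permutation p = 0.00195), Kat7 with Rnf43 (0.592-fold, 55 against 324, 0.0328) and again Ccnl1 with Meaf6 (2.96-fold, 5 against 14, 0.00238), whose summed ratio was 1.32-fold (adjusted permutation p = 0.694). Among pairs there that did not pass per mouse, the highest were Kat7 with Ccnl1 at 1.57-fold and with p53 at 1.52-fold and Meaf6 with Ccnl2 at 1.66-fold and with Kmt2b at 1.62-fold. Summed, Kat7 with p53 was at 1.47-fold and passed (adjusted permutation p = 0.0118, or 0.0295 per mouse with division by the SE). The other 3 were below KT when summed, at 0.800-fold, 0.997-fold and 0.810-fold. The lowest per mouse were Kat7 with Keap1 at 0.590-fold and Meaf6 with Pcna at 0.563-fold, with Keap1 at 0.691-fold and with Rnf43 at 0.697-fold. Of these, Kat7 with Keap1 and Meaf6 with Pcna passed when summed, at 0.674-fold and 0.376-fold (adjusted permutation p = 0.0466 and 0.0182). With division by the SE 9 pairs passed and 40.4% of all pairs were called, and summed over mice 6 passed and 38.2% were called.

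No difference passed between the places of the Kat7 guide in the construct. Relative to KT, Kat7 beside an inert guide was at 0.722-fold in place 1 (164 tumours in H11-Cas9, 301 in KT) and 0.637-fold in place 2 (114 and 237), and the difference between places gave a permutation p of 0.424. In H11-LSL-Cas9 the values were 1.01-fold and 0.758-fold (permutation p = 0.265). Kat7 was below KT in H11-Cas9 with each of the 5 inert guides, from 0.626-fold to 0.775-fold. Meaf6 in H11-Cas9 was lowest at 0.559-fold with the guide safe_V1, which held 91 of its 157 tumours. With the others it was 0.744-fold for NT_V1 (9 tumours), 0.908-fold for safe_V2 (43), 0.968-fold for safe_V3 (5) and 1.67-fold for EGFP_V1 (9). The Meaf6 decrease beside an inert guide thus rests largely on constructs with safe_V1, and differences between inert guides were not tested.

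No difference in the size of the tumours that were present passed for either member alone. Within each mouse the mean log2 cells of inert tumours was taken from that of a member's tumours, with at least 5 of each, and the differences were tested by sign flips over mice. Beside an inert guide in H11-Cas9, the lowest, median and highest mouse had differences of -0.68, 0.13 and 1.82 for Kat7 (31 mice), and the mean of 0.21 ± 0.11 SE did not pass (adjusted p by sign-flip permutation 0.0874, with 70.6% of the 17 genes called). For Meaf6 they were -0.73, 0.20 and 2.03 (13 mice), with a mean of 0.25 ± 0.21 (exact sign-flip test, adjusted p = 0.301). Kat7 tumours were larger than inert/inert tumours in 20 of 31 mice and Meaf6 tumours in 8 of 13. The Kat7 value turned with the setting. It passed at 0.27 with same-guide inert constructs kept and at -0.38 when only the largest tumours were compared (sign-flip permutation, adjusted p = 0.0173 and 0.0474). The latter form takes as many Kat7 tumours as its KT ratio predicts, so it also reads tumour number and not size alone. In the main form the Kat7 value was 0.43 near 100000 cells and 0.05 near 300000 cells (sign-flip permutation, adjusted p = 0.0387 and 0.755).

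With more tumours, beside other targeted genes, the mean difference in H11-Cas9 was -0.07 ± 0.05 for Kat7 and 0.05 ± 0.07 for Meaf6 (SE, 45 mice, sign-flip permutation, adjusted p = 0.253 and 0.504), where 52.9% of genes were called. Kat7 was below 0 in 26 of 45 mice and Meaf6 in 23. In H11-LSL-Cas9 the differences beside an inert guide were 0.07 ± 0.09 for Kat7 (13 mice) and -0.17 ± 0.20 for Meaf6 (9 mice), and the adjusted p was 0.84 for both by exact sign flips, with 11.8% of genes called. Beside other genes they were -0.05 ± 0.07 and 0.00 ± 0.10 (18 mice, sign-flip permutation, adjusted p = 0.684 and 0.991). In KT mice they were 0.04 ± 0.11 for Kat7 and -0.14 ± 0.10 for Meaf6 beside an inert guide (9 mice, exact sign flips, adjusted p = 0.887 and 0.780), and 0% of genes were called at an adjusted p under 0.05.

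**Figure D4:**
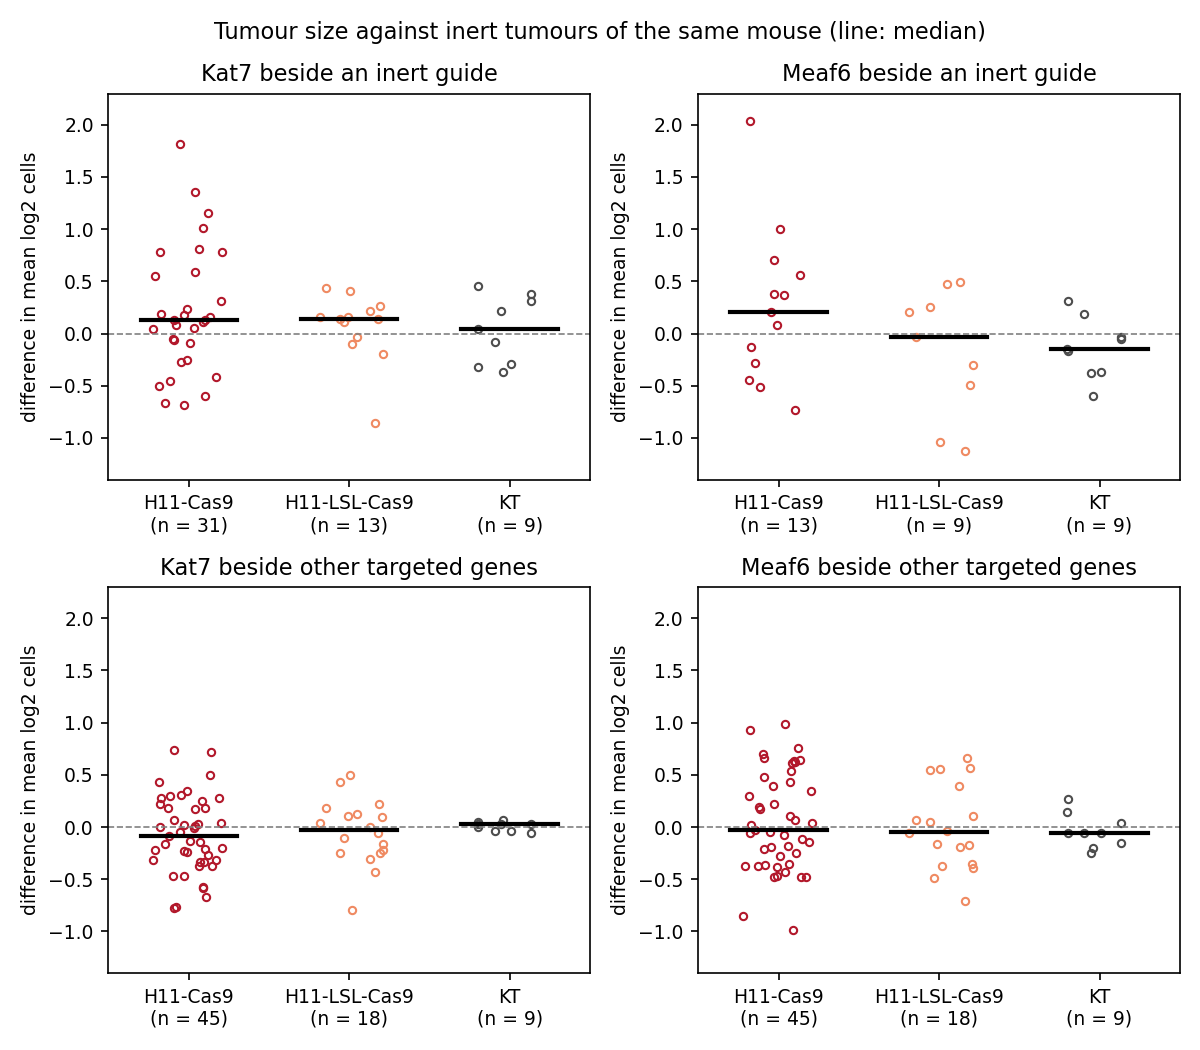
Difference in mean log2 cells between tumours with Kat7 (left) or Meaf6 (right) and inert tumours of the same mouse, beside an inert guide (top) and beside other targeted genes (bottom). Each point is 1 mouse, with at least 5 tumours of each kind (top) or at least 5 of the member over all partners (bottom), and lines are medians. Points of the 3 groups lie on both sides of 0, with H11-Cas9 medians of 0.13 and 0.20 in the top row and -0.08 and -0.03 in the bottom row.

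The upper end of the size range was read from all tumours of a group. In H11-Cas9, 24 of 278 Kat7 tumours (8.63%, 95% Clopper-Pearson interval 5.61 to 12.6) and 14 of 157 Meaf6 tumours (8.92%, 4.96 to 14.5) had at least 1000 cells, against 62 of 1107 inert/inert tumours (5.60%, 4.32 to 7.12). The intervals overlapped, and they cover counting error only. The 95th percentile of size was 1566 cells for Kat7 and 2422 for Meaf6, against 1112 for inert/inert, while the medians were 164, 159 and 164 cells. The largest Meaf6 tumour had 53912 cells. Of the 24 tumours with both members in H11-Cas9, 0 had 1000 cells, with a 95% Clopper-Pearson upper limit of 14.2%, and their median was 245 cells.

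In H11-LSL-Cas9 the shares of at least 1000 cells were 7.58% for Kat7 (3.69 to 13.5), 5.88% for Meaf6 (1.94 to 13.2) and 4.75% for inert/inert (2.88 to 7.32). In KT they were 19.1% (15.9 to 22.7), 16.3% (12.3 to 20.9) and 17.1% (15.2 to 19.1). The intervals of both members overlapped that of inert/inert tumours in each group.

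No difference in size between Kat7 and Meaf6 passed beside other genes, at -0.12 ± 0.08 (SE) in H11-Cas9 (45 mice) and -0.05 ± 0.09 in H11-LSL-Cas9 (18 mice, sign-flip permutation p = 0.135 and 0.587, not adjusted). Size differences between H11-Cas9 and H11-LSL-Cas9 did not pass either for the members (adjusted permutation p from 0.273 to 0.817), with 5.88% of genes called both beside an inert guide and beside other genes.

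Pairs and steps in size could be tested for few partners, because a mouse rarely held 5 tumours of a member with 1 given partner. In H11-Cas9, 9 partners of Kat7 and 3 of Meaf6 could be tested, in at most 29 and 5 mice. With 5 mice the exact sign-flip test gives no p below 0.0625. Thus 7 of the 9 tests of Kat7 and 0 of the 3 of Meaf6 could reach an unadjusted p under 0.05, in pairs as in steps. A call also needs the adjustment, and for Rb1 with 6 mice the smallest p before it is 0.03125. Against inert/inert tumours 1 pair of Kat7 passed as larger, where 36.8% of 106 pairs were called. The lowest pairs of Kat7 were those with Keap1 at -0.58 ± 0.26 (4 mice), Setd2 at -0.06 ± 0.24 (11 mice) and Rnf43 at 0.08 ± 0.18 (10 mice), and Rb1 at 0.44 ± 0.29 (6 mice) was the highest. No step in size of Kat7 passed there, where 11.8% of 212 steps were called, and the lowest adjusted p was 0.274 (sign-flip permutation). The lowest Kat7 step was -0.59 ± 0.34 beside Keap1 (4 mice), with -0.41 ± 0.22 beside Lkb1 (3 mice) and -0.30 ± 0.17 beside Nf1 (17 mice, below 0 in 11). Rb1 had the highest tested step, at 0.29 ± 0.28 (6 mice), and the next were Rnf43 at 0.01 ± 0.14 and p53 at -0.01 ± 0.16. For Meaf6 the step beside Nf1 was -0.43 ± 0.21 (5 mice) and beside Rasa1 0.03 ± 0.43 (3 mice).

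No pair of Kat7 departed in size from the sum of the single effects by a called amount in H11-Cas9. Of the 9 tested, 6 had enough mice for an unadjusted p under 0.05. Of 106 pairs 21.7% were called, and 22 of the 23 called were below the sum. The departure with the lowest adjusted p was that of Kat7 with Nf1, at -0.58 ± 0.29 (15 mice, sign-flip permutation, adjusted p = 0.151). In H11-LSL-Cas9 enough mice for an unadjusted p under 0.05 stood behind 4 pairs, 4 steps and 4 departures of Kat7 and 0 of Meaf6. None of those of Kat7 passed, where 3.64%, 2.76% and 0% of all were called, and none had an unadjusted p under 0.05. A call also needs the adjustment over all tests, so these counts are upper limits and the absence of calls decides little. Kat7 with p53, tested in 13 H11-LSL-Cas9 mice, was at 0.14 ± 0.18 against inert/inert tumours.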

How the data were processed

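Per the labels, barcode and guides were amplified from 32 µg of lung DNA of each mouse and sequenced. The deposited table gives each tumour's reads as counts, without normalization, and its cells as a signal that the authors estimated with spike-in barcodes, equal within a mouse to reads times 1 factor. No tumour in it was below 50.1 cells or 3 reads, and how reads became tumours is not stated in the sources used here. Groups came from the genotype labels.

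Both orders of a guide pair were joined. Left out were 287 spike-in entries, 1 entry with a spike-in beside a guide, 6757 tumours with the same guide in both places, and tumours with the guide NE. Number was log2((tumours + 0.5) / (tumours of the comparison class + 0.5)) per mouse, Cas9 mice minus KT mice, with labels permuted 100000 times. Summed numbers used a ratio with an SE over mice, and the permuted difference was divided by its SE. Size differences were tested by 2-sided sign flips, exact for up to 16 mice. Benjamini-Hochberg adjustment ran over all genes, pairs or steps, except where a p is given as unadjusted or between the places of a guide, and an adjusted p under 0.05 was a call. The smallest p that the permutations can give is 1e-05. The tests were tried on simulated data with known changes. The software was Python 3.11.15 with scipy 1.17.1, pandas 2.3.3, numpy 2.4.6 and, for plots, matplotlib 3.10.9.

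The members, the lists and the tests were chosen with earlier results of these data known. Genes were named by a rule: the members alone and together, pairs past the threshold, the 3 highest and 3 lowest partners of each measure (in H11-LSL-Cas9 not all in size), Kmt2a, Kmt2b and Setd2 as a list, and the other genes with 1 guide. Counts over partners include 1 gene whose results are not reported here. Summed pair numbers, LA mice near 300000 cells and the removal of mice of fewer than 20 tumours were added after seeing the data.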

Additional observations from a re-analysis of the deposited data

Results flagged for a closer look

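The number of Meaf6 tumours in KT replicate 6 was the lowest of the 9 KT mice and lay far from the next, at -2.85 on the log2 scale against a KT median of -2.16, which is 13.5 tumours per 100 inert/inert tumours. Chance gives such a gap in about 1 in 20 groups, and 9 groups were looked at.

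Number beside other genes differed between H11-Cas9 and H11-LSL-Cas9 for both members, at a log2 difference of -0.26 ± 0.09 for Kat7 and -0.47 ± 0.10 for Meaf6 (SE, labels permuted, adjusted p = 0.00591 and 0.000127), where 64.7% of the 17 genes were called. With only the mice near 300000 cells Kat7 lost the call at -0.18 ± 0.09 and Meaf6 was at -0.37 ± 0.11 (adjusted permutation p = 0.0756 and 0.00591). Of the members' 32 steps compared between these groups 4 passed, against 23.9% of all 272 steps, and among them that of Kat7 beside p53 differed by -0.80 ± 0.20 and that of Meaf6 beside Nf1 by -0.67 ± 0.23 (labels permuted, adjusted p = 0.00258 and 0.0194). The name letters of the mice cannot be told apart from this contrast.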

How the results depend on the processing

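The decrease of Kat7 beside other genes in H11-Cas9 passed under all 7 alternatives with log2 values from -0.47 to -0.31, and with each KT mouse left out from -0.41 to -0.38. That of Meaf6 passed under 5 of 7 and with each KT mouse left out (-0.47 to -0.42), but not near 300000 cells (-0.34) or in LA mice near that total (-0.38), against 4 KT mice. Beside an inert guide in H11-Cas9 Kat7 passed under 5 of 11 alternatives and Meaf6 under 3 of 11. Kat7 passed with division by the SE (-0.55), summed numbers (-0.55), safe guides only (-0.63), NE as inert (-0.57) and same-guide inert constructs kept (-0.52). Meaf6 passed with the first 3 of these (-0.58, -0.56, -0.73). Neither passed with a pseudocount of 1, relative to all tumours, with at least 200 cells, within either spike-in total or in LA mice near 300000 cells. With each KT mouse left out Kat7 was at -0.59 to -0.50 and Meaf6 at -0.66 to -0.54, with no pass.

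Size of Kat7 in H11-Cas9 passed with same-guide inert constructs kept (0.27) and near 100000 cells (0.43). With adaptive sampling, which compares the largest 50% of inert/inert tumours with as many of a gene's largest as its KT ratio predicts, and so also reads tumour number, it was -0.38 (adjusted permutation p = 0.0474), and Meaf6 was -0.20. Beside other genes Kat7 turned to 0.045 with at least 200 cells and 0.011 near 300000 cells. In H11-LSL-Cas9, where nothing passed, signs turned for Kat7 size with at least 200 cells (-0.079), at least 2 tumours (-0.015) and adaptive sampling (-0.050), for Meaf6 size with NE as inert (0.0060) and adaptive sampling (0.083), and for Meaf6 size beside other genes with at least 200 cells (-0.17) and without Pcna (-0.00030). They turned for number of Kat7 relative to all tumours (0.056) and, beside other genes, with at least 200 cells (0.0016), and of Meaf6 with at least 200 cells (-0.27), safe guides (-0.14) and, beside other genes, at least 200 cells (-0.0087) and without Pcna (-0.020). Leaving out KT mice gave -0.065 to 0.052 and, beside other genes, -0.00065 to 0.047 for Meaf6, and -0.17 to -0.09 and -0.15 to -0.13 for Kat7.

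Called pairs in size in H11-Cas9 were 1, and 0 with at least 200 cells or at least 2 tumours. Called pairs in number in H11-Cas9 were 8, and 16 with division by the SE or 17 summed. In H11-LSL-Cas9 they were 3, and 9 with division by the SE, 13 with a pseudocount of 1, 7 with at least 200 cells or 6 summed. The cause of these changes was not tested. Between the groups, which held different mice, no paired analysis was possible because the labels give no replicate numbers. Size differences were paired within each mouse, against inert tumours of the same mouse.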
